A study of Homo sapiens with 4 samples.

Results

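The cytosolic sulfotransferases are the soluble enzymes that move a sulfonate group from the donor PAPS (3'-phosphoadenosine-5'-phosphosulfate) onto hormones, neurotransmitters, bile acids, drugs and dietary phenols. The genes described are SULT1A1, SULT1A2, SULT1B1, SULT1C2, SULT1C3, SULT1C4, SULT1E1, SULT2A1, SULT2B1 and SULT4A1. The members were chosen by gene symbol, with the probe set of highest mean level over the arrays standing for a gene. A probe set that names the gene alone was found for 9 of the 10, 1 for each, so that the choice between probe sets never arose, and SULT1A2 was not analysed here. The 9 genes are part of 17958 genes tested. The family was selected on the same arrays, with the fall of SULT1C2 in treated cells already known. The treated-against-vehicle values of its members are therefore a description. No p-value is given for SULT1C2, and the calls of the other members are not independent evidence.

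HCT116, an established line of human colorectal carcinoma cells, was profiled on 4 Affymetrix arrays of total RNA. The treated group (2 arrays) was given 5-aza-2'-deoxycytidine, also called decitabine, which cells build into DNA in place of cytidine and which then traps the enzymes that methylate DNA. The dose was 1 µM 24 hours after seeding and again 48 hours later, and RNA was collected 72 hours after the first dose. The vehicle group (2 arrays) had no drug, and the vehicle itself is not named. Both groups are the same single cell line, and the labels do not tell whether replicates 1 and 2 were separate cultures, so the spread between them may be technical. Levels are log2 RMA values as deposited, on which a difference of 1 is a doubling, and differences are treated minus vehicle with the moderated standard error (SE) of limma.

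Sulfonation makes most substrates more soluble and easier to excrete, and it switches steroid and thyroid hormones off until a sulfatase frees them again. The SULT1 enzymes act mainly on phenols and estrogens, the SULT2 enzymes on hydroxysteroids, and SULT4A1 is a brain-enriched relative whose substrates are not settled. Liver and the lining of the gut are the classic sites of expression.

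SULT1C2 was the member with the large change. SULT1C2 sulfonates small phenols and is expressed in stomach, kidney and fetal tissues. Its level was 7.11 and 7.06 on the vehicle arrays and 4.69 and 3.97 on the treated arrays. The vehicle arrays lay close together, both treated arrays lay far below them, and the gap between the groups was 2.37. The treated replicates differed from each other by 0.72, more than for any other member on either pair of arrays. The mean went from 7.08 ± 0.04 to 4.33 ± 0.51 (SD, n = 2), a log2 difference of -2.75 (SE 0.22, 95% interval -3.28 to -2.22), or 6.74-fold lower. That difference ranks 5 from the lowest among all genes tested. Without treated replicate 1 it was -3.11 and without treated replicate 2 it was -2.39. In a bulk RNA sample, fewer cells that express a gene and less RNA per cell cannot be told apart.

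**Figure D1:**
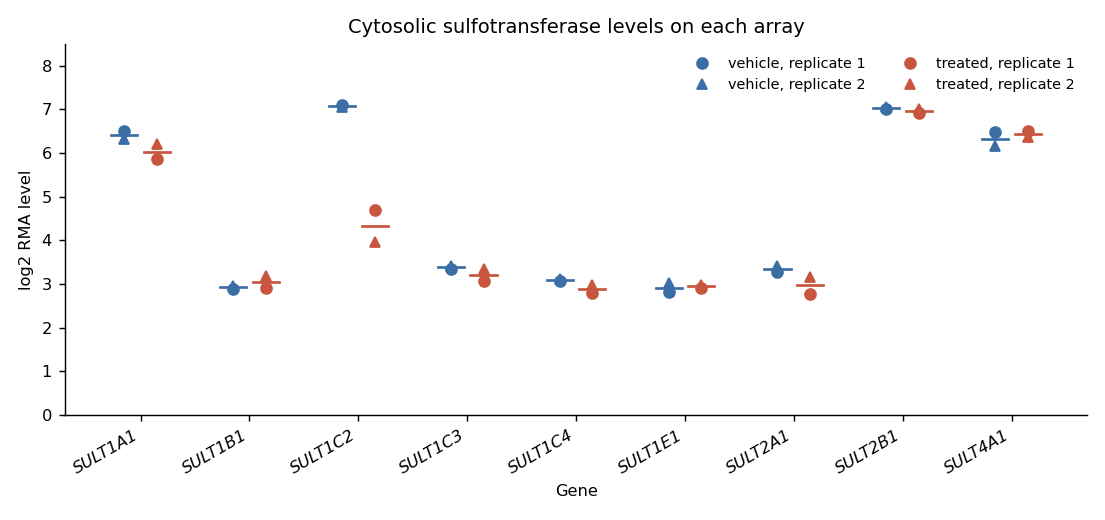
Log2 RMA level (vertical axis) of the 9 sulfotransferase genes with a probe set of their own on each array; circles are replicate 1, triangles replicate 2, and bars the mean of 2 arrays. SULT1C2 is the gene whose treated arrays (4.69 and 3.97) lie far below its vehicle arrays (7.11 and 7.06); levels of different genes come from different probes and are not compared.

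SULT1C2 lies on chromosome 2 in a cluster between SULT1C3 and SULT1C4, its closest relatives in the family. Because the drug traps the enzymes that methylate DNA, the 250 bases before the start of each of these genes are shown, from RefSeq on GRCh38.p14. Each is read 5' to 3' on the + strand, and capitals mark the CpG dinucleotides. SULT1C2 (chr2:108288645-108288894) has 2 CpGs, 178 and 31 bases before the start. SULT1C3 (chr2:108239718-108239967) has 1, 197 bases before it, and SULT1C4 (chr2:108377704-108377953) has 4, at 99, 85, 58 and 44 bases.
SULT1C2: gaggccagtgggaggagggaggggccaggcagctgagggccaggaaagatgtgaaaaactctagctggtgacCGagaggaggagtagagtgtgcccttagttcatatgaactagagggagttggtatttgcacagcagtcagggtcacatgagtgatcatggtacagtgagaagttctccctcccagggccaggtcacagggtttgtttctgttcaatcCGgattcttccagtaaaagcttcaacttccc
SULT1C3: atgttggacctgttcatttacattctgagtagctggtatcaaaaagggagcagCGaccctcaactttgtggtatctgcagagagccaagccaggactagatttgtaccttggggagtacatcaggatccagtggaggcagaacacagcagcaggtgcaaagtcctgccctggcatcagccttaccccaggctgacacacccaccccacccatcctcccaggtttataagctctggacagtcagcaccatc
SULT1C4: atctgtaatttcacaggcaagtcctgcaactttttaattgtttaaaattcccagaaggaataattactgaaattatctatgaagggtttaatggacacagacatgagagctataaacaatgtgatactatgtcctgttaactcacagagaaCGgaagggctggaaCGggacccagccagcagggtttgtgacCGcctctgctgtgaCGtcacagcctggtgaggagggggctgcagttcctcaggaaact

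All 3 windows are poor in CpG. Over 35116 promoters of this length in the table the median was 11 CpGs, and 77.1% had more than SULT1C2, 85.3% more than SULT1C3 and 65.7% more than SULT1C4. The table held 7 of the 10 members. SULT1B1 had 0 CpGs, SULT1E1 had 1, SULT2A1 had 4 and SULT2B1 had 11, so 6 of the 7 were below the median and SULT2B1 was at it. Motifs were searched on both strands, and none of those searched is part of another. TATAAA, the letters of a TATA box, was found once each before SULT1B1, SULT1C3, SULT1C4 and SULT1E1 and in 10.7% of all promoters. It was not among the letters before SULT1C2, SULT2A1 or SULT2B1. In SULT1C3 the match was on the opposite strand. The distance of a match from the start was not weighed, so a match need not be a working TATA box. AGGTCA, a hexamer bound by nuclear receptors, occurred once before SULT1C2, in none of the other 6, and in 12.1% of all promoters. GGGCGG, the GC box, occurred once before SULT2B1 (42.6% of all promoters), and CCAAT in none of the 7 (32.0%). These are matches of letters in the reference. No methylation or factor binding was measured.

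Neither cluster partner of SULT1C2 passed the test. SULT1C3, a poorly characterised enzyme of the same subfamily, read 3.34 and 3.42 in vehicle and 3.07 and 3.34 in treated cells. The groups were separated by only 0.000507, and the log2 difference was -0.17 (SE 0.14, limma adjusted p = 0.390, 95% interval -0.50 to 0.15). SULT1C4, which acts on phenols and estrogens, read 3.07 and 3.12 in vehicle and 2.80 and 2.98 in treated cells, a difference of -0.20 (SE 0.12, limma adjusted p = 0.267, interval -0.49 to 0.09). Both values moved with the treated arrays and the scaling. SULT1C3 was -0.04 without treated replicate 1, -0.31 without treated replicate 2 and -0.05 after repeated quantile normalization, and SULT1C4 was -0.12, -0.29 and -0.06. Neither passed in any of these fits. Both intervals end well short of the interval of SULT1C2. Nothing is read from that, since its fall chose the family and both genes had far lower vehicle levels. The levels of both genes were low on all arrays, where no detection call is available and RMA folds are usually compressed, so a fall from such a level could be missed.

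SULT1A1, SULT1B1 and SULT1E1 act on phenols, thyroid hormone and estrogens, and none of them passed. SULT1A1 is the main phenol sulfotransferase of adult liver and gut. Its level was 6.50 and 6.32 in vehicle and 5.86 and 6.20 in treated cells. Both treated arrays were lower, but the gap of 0.12 was smaller than the difference between either pair of replicates (0.18 and 0.34). The log2 difference was -0.38 (SE 0.15, limma adjusted p = 0.113, interval -0.74 to -0.02). The value depended on the treated arrays: it was -0.21 without treated replicate 1 (limma adjusted p = 0.293) and -0.55 without treated replicate 2, where it passed (limma adjusted p = 0.0317). Its probe set may also bind transcripts of the near-identical genes SULT1A2, SULT1A3 and SULT1A4, which was not assessed.

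SULT1B1 and SULT1E1 are neighbours on chromosome 4. SULT1B1, a thyroid hormone and phenol sulfotransferase of the intestine, read 2.90 and 2.95 in vehicle and 2.91 and 3.19 in treated cells. The groups overlapped, with a log2 difference of 0.13 (SE 0.14, limma adjusted p = 0.538, interval -0.20 to 0.45). SULT1E1, the high-affinity estrogen sulfotransferase, read 2.82 and 3.02 in vehicle and 2.91 and 2.98 in treated cells, so that both treated values fell between those of vehicle. Its difference was 0.03 (SE 0.13, limma adjusted p = 0.905, interval -0.27 to 0.32).

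The hydroxysteroid sulfotransferases are SULT2A1, which sulfonates DHEA and bile acids, and SULT2B1, which acts on cholesterol and pregnenolone. SULT2A1 read 3.27 and 3.41 in vehicle and 2.78 and 3.17 in treated cells. The treated arrays were lower by a gap of 0.10, within the 0.39 by which they differed from each other. The log2 difference was -0.36 (SE 0.16, limma adjusted p = 0.140, interval -0.74 to 0.02). It was -0.17 without treated replicate 1 (limma adjusted p = 0.381) and -0.23 after repeated quantile normalization (limma adjusted p = 0.292). It passed without treated replicate 2 (-0.55, limma adjusted p = 0.0262) and with a replicate block (limma adjusted p = 0.0453). SULT2B1 read 7.001 and 7.05 in vehicle and 6.92 and 7.02 in treated cells. The groups overlapped, with a difference of -0.06 (SE 0.12, limma adjusted p = 0.759, interval -0.33 to 0.22). SULT4A1 read 6.48 and 6.16 in vehicle and 6.51 and 6.38 in treated cells, again overlapping, with a difference of 0.12 (SE 0.15, limma adjusted p = 0.573, interval -0.22 to 0.47).

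Counted over the family, 1 of 9 genes was called lower and 0 higher at a limma adjusted p under 0.05, a share of 11.1%. Over all genes 28.0% were called, 15.6% lower and 12.4% higher. Since the contrast was used in choosing the family, nothing is read from this count. Of the 8 members other than SULT1C2, SULT1A1 had an unadjusted p under 0.05 in limma and the other 7 did not. For 5 members every treated array lay outside the vehicle values (SULT1A1, SULT1C2, SULT1C3, SULT1C4 and SULT2A1), each time on the lower side, and 39.5% of all genes showed such a separation on that side and 65.8% in either direction. The median log2 difference was -0.17 over the 9 members, -0.12 over the 8 without SULT1C2 and -0.07 over all genes. The median over the 9 was -0.06 after repeated quantile normalization and -0.04 without treated replicate 1. For these 8 the differences ran from -0.38 to 0.13, and their intervals together covered -0.74 to 0.47, so none had an interval that reached a 2-fold change. Levels of 5 of the 8 (SULT1B1, SULT1C3, SULT1C4, SULT1E1 and SULT2A1) were under 4 on every array. From such levels a 2-fold fall could be missed, so the intervals of these 5 do not bound a fall.

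**Figure D2:**
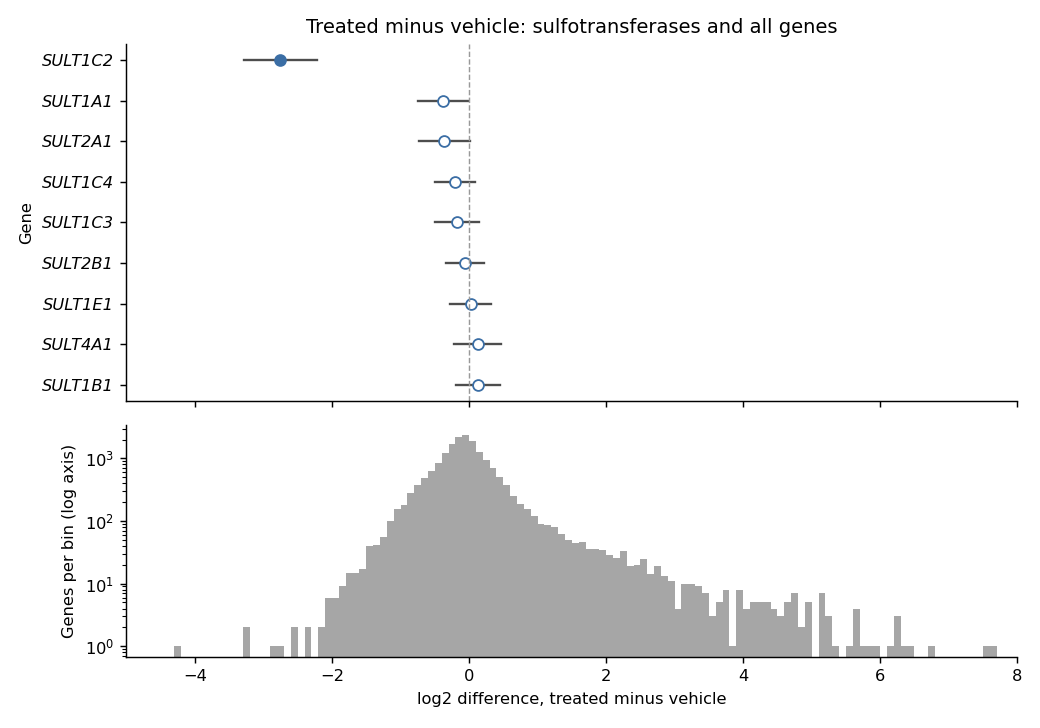
Upper panel: log2 difference, treated minus vehicle, of each sulfotransferase gene (points) with its 95% interval (lines). Open points did not pass a limma adjusted p under 0.05. The filled point is SULT1C2, whose fall chose the family, so its fill is a description and not a test result. Lower panel: number of genes per bin of 0.1 among 17958 tested, on a log axis, in which SULT1C2 at -2.75 lies in the thin lower tail and the other 8 members lie between -0.38 and 0.13.

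The replicates leaned the same way in most members. Treated replicate 1 was below treated replicate 2 in 7 of 9 members, the exceptions being SULT1C2 and SULT4A1, and vehicle replicate 1 was below vehicle replicate 2 in 6 of 9. Over the 2654 genes with a mean level under 4, treated replicate 1 was the lower in 64.6%, with a median difference of -0.07. Over all genes the share was 48.7%. The part of this lean in the differences of the dim members was not tested.

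Genes next to the family members were examined with the same fit, since they were not used to choose it. The 3 nearest tested genes on each side of each member make 36 genes. Of these 4 rose and 1 fell in limma's test, 13.9% in all against 28.0% of all genes, with a median log2 difference of -0.08 against -0.07. Around the SULT1C cluster none of 6 passed: UXS1, ST6GAL2 and SLC5A7 on one side had differences of 0.11, -0.25 and -0.05, and GCC2, GCC2-AS1 and LIMS1 on the other 0.28, -0.24 and -0.03. SLC5A7, the choline transporter gene next to SULT1C3, read 2.99 and 2.99 in vehicle and 2.97 and 2.92 in treated cells (limma adjusted p = 0.807), and its sign turned under repeated quantile normalization (0.09). GCC2, a Golgi coiled-coil protein gene next to SULT1C4, read 8.82 and 8.69 in vehicle and 9.19 and 8.87 in treated cells (limma adjusted p = 0.209). The signal of an antisense gene such as GCC2-AS1 depends on the strand of its probes, which was not assessed.

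The contrast was sharpest beside SULT2A1. TPRX1, a homeobox gene of the early embryo that lies beyond CRX on chromosome 19, read 3.92 and 4.25 in vehicle and 8.72 and 8.98 in treated cells. It rose 27.1-fold (log2 difference 4.76, SE 0.16, limma adjusted p = 6.43e-06), while CRX itself (0.14, limma adjusted p = 0.401) and SULT2A1 did not pass. The other rises were of NUPR1, a stress-induced chromatin protein near SULT1A1 (0.91, limma adjusted p = 0.00377), CYTH2, a guanine nucleotide exchange factor near SULT2B1 (0.76, limma adjusted p = 0.00422), and PNPLA3, a lipid droplet enzyme near SULT4A1 (0.50, limma adjusted p = 0.0225). The fall was of TUFM, a mitochondrial elongation factor near SULT1A1 (-0.39, limma adjusted p = 0.0432). Leaving out either vehicle array left 3 rises and 0 falls, TUFM and PNPLA3 being lost. These 2 were also lost with housekeeping centring, although the fall of TUFM was larger there. TUFM was also lost after repeated quantile normalization and without treated replicate 2, and CYTH2 when its probe sets were averaged (0.23).

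**Figure D3:**
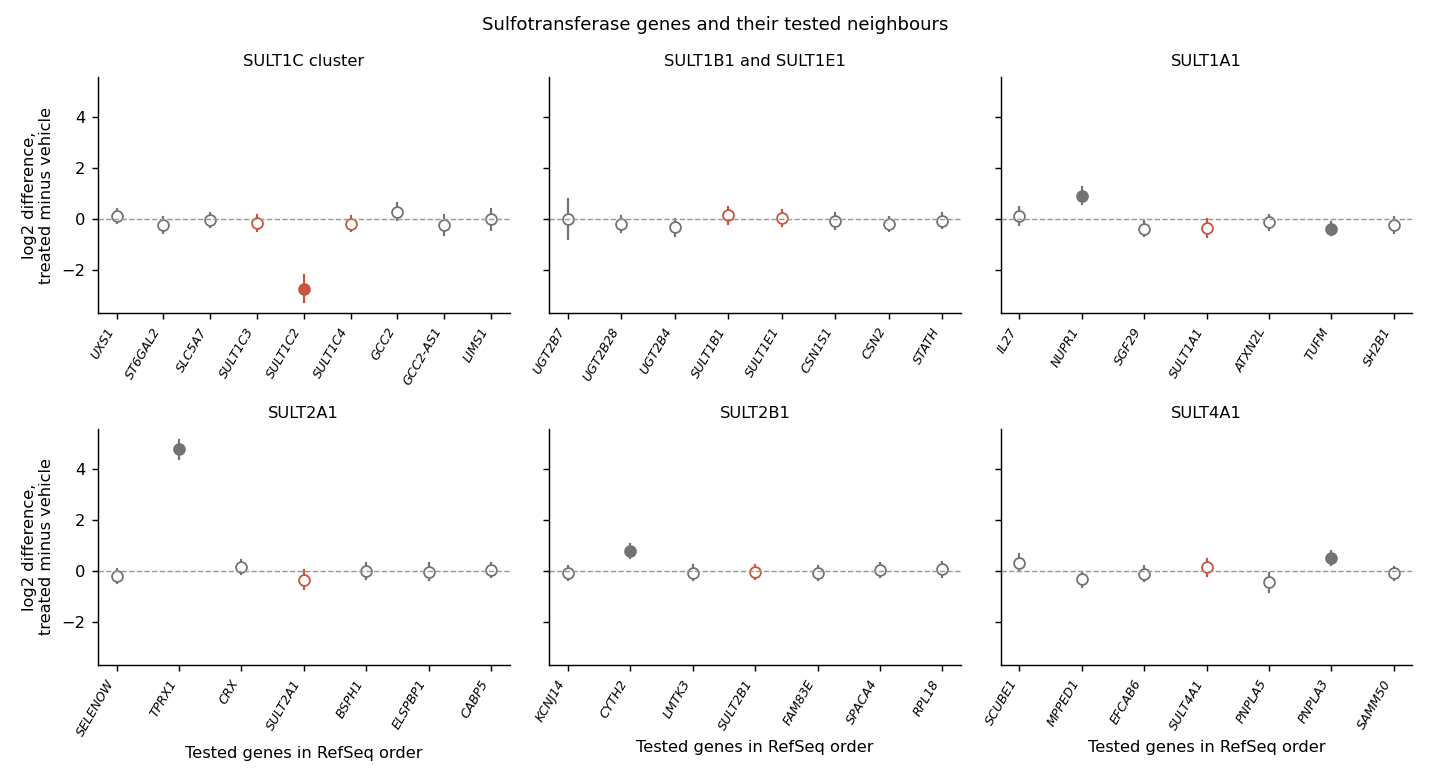
Log2 difference, treated minus vehicle (vertical axis), with 95% interval, of sulfotransferase genes (red) and their nearest tested neighbours (grey) in RefSeq gene order, 1 panel per locus. Filled points passed a limma adjusted p under 0.05, but the fill of SULT1C2 is a description, since its fall chose the family. SULT1C2 at -2.75 and TPRX1 at 4.76 are the only filled points in their panels. Other genes there, SULT1C3, SULT1C4, SLC5A7 and SULT2A1 among them, had low levels, from which a fall could be missed.

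The genes whose pattern over the 4 arrays was most like that of SULT1C2 were found by Euclidean distance after subtracting each gene's vehicle mean. They were LMF1 (distance 0.61), MNS1 (0.62), RAB26 (0.64), BTN3A2 (0.68) and ANXA10 (0.72), with log2 differences from -3.23 (ANXA10) to -2.32 (MNS1). MNS1 also resembled SULT1C2 in its treated replicates, at 5.77 and 5.07. LMF1, by contrast, read 6.90 and 6.93. The measure is taken over 4 arrays and depends mostly on the size of the fall.

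Among genes for the supply of the sulfate donor, CDO1 changed most. Of 13 tested genes for sulfate uptake and for the making, transport and breakdown of PAPS, 2 rose and 2 fell in limma's test (median log2 difference -0.06, against -0.07 over all genes). The share called was 30.8%, against 28.0% of all genes. CDO1, which oxidises cysteine on the way to sulfate, read 4.25 and 4.77 in vehicle and 9.42 and 9.07 in treated cells and rose 26.6-fold (log2 difference 4.74, SE 0.20, limma adjusted p = 1.65e-05). The sulfate transporter SLC26A2 rose by 0.54 (limma adjusted p = 0.0249). SUOX, the oxidase that makes sulfate from sulfite, fell by 0.63 on the log2 scale (limma adjusted p = 0.0177), and SLC35B2, which carries PAPS into the Golgi, fell by 0.46 (limma adjusted p = 0.0256). PAPSS1 and PAPSS2, which make PAPS for all sulfotransferases, had log2 differences of -0.35 (limma adjusted p = 0.136) and -0.45 (limma adjusted p = 0.0573) and did not pass.

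Of 18 tested genes for sulfatases, the enzymes that remove sulfate, and their activators, 3 rose, 4 fell and 11 did not pass (median -0.03). That is 38.9% called, against 28.0% of all genes. SUMF1, which installs the catalytic formylglycine of all sulfatases, fell from 6.55 and 6.64 to 5.41 and 5.46 (2.23-fold lower, SE 0.12 on the log2 scale, limma adjusted p = 0.000662). STS, the steroid sulfatase that reverses the work of SULT1E1 and SULT2A1, rose by 0.60 (limma adjusted p = 0.0173). ARSI rose by 0.87 and ARSA by 0.56, and ARSK, GALNS and ARSG fell by 0.54, 0.55 and 0.46, with limma adjusted p between 0.00348 and 0.0275.

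The membrane-bound sulfotransferases of the Golgi, which use the same donor on sugars and proteins, included 6 rises and 5 falls among 35 genes tested (31.4% called, median -0.02). CHST10, which makes the HNK-1 epitope, rose 3.49-fold, NDST4, a heparan sulfate enzyme, 3.59-fold, CHST11, a chondroitin enzyme, 2.53-fold, and GAL3ST1, which makes sulfatide, 2.36-fold, with limma adjusted p between 8.96e-05 and 0.00163. HS3ST1, a heparan sulfate enzyme, fell from 10.01 and 10.15 to 8.84 and 9.18 (2.09-fold lower, limma adjusted p = 0.00283). UST, HS2ST1, HS6ST2 and CHST4 fell by 0.86, 0.54, 0.57 and 0.47. Over the 3 lists together 22 of 66 genes were called, 33.3% against 28.0% of all genes. Without vehicle replicate 1 the count was 10 (8 rises, 2 falls) and without vehicle replicate 2 it was 11 (8 rises, 3 falls), and SUOX, SLC26A2, SLC35B2, ARSA, ARSK, GALNS, ARSG, HS2ST1, HS6ST2 and CHST4 were lost in both fits and STS and UST in the first. Housekeeping centring ended the calls of SLC26A2, SLC35B2, ARSA, ARSG and STS. For SLC35B2 and ARSG the difference was larger in that fit (-0.54 for each), so these 2 calls were not lost through a smaller difference. ARSG was also lost without treated replicate 2, and CHST4 without either treated array and with a trended, robust variance.

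**Figure D4:**
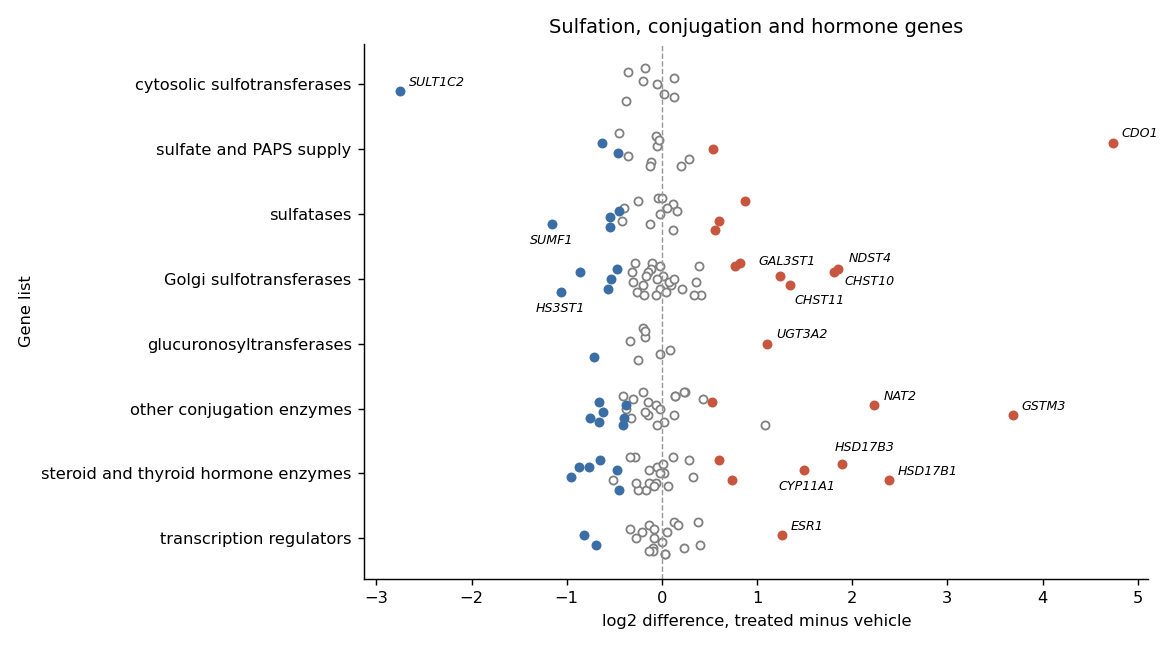
Log2 difference, treated minus vehicle (horizontal axis), of each tested gene, 1 row per list, offset vertically for legibility. Filled points passed a limma adjusted p under 0.05 (red higher, blue lower), and called genes that differ by 1 or more are named. The row labelled glucuronosyltransferases holds all UGT genes tested, not all of which transfer glucuronic acid. SULT1C2 at -2.75 has the lowest value shown and CDO1 at 4.74 the highest. The fill of SULT1C2 is a description, since its fall chose the family.

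Other conjugating enzymes were called at a share near the 28.0% of all genes. Of 38 tested UGT glycosyltransferases, glutathione transferases, acyltransferases and methyltransferases, 4 rose and 8 fell (31.6%, median -0.16). Only 9 of the 22 UGT genes listed were tested, with no UGT1A gene among them. GSTM3, a glutathione transferase, rose 12.9-fold and NAT2, an arylamine acetyltransferase, 4.69-fold, and UGT3A2 rose by 1.11 and GSTM2 by 0.53. UGT8, GSTO2 and GSTK1 fell by 0.71, 0.75 and 0.62. Without vehicle replicate 1 the calls numbered 6 (4 rises, 2 falls) and without vehicle replicate 2 they numbered 5 (3 rises, 2 falls). Of the genes named, GSTM2 and GSTK1 were lost in both fits and UGT8 in the first, and GSTM2 also with housekeeping centring.

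Of 50 tested genes for steroid and thyroid hormone metabolism and for regulators known to control sulfotransferase genes, 6 rose and 8 fell (28.0%, median -0.08). The 29 hormone enzymes included 5 rises and 6 falls (37.9% called). The 21 regulators, not all of them transcription factors, included 1 rise and 2 falls (14.3%). Over all genes 28.0% were called. HSD17B1, which makes estradiol, rose from 5.36 and 5.40 to 7.36 and 8.16 (5.21-fold), HSD17B3, which makes testosterone, rose 3.70-fold and CYP11A1, the first enzyme of steroid synthesis, 2.81-fold. HSD3B1 rose by 0.74, but 0.35 with its probe sets averaged (limma adjusted p = 0.0858), and HSD11B2, which inactivates cortisol, fell by 0.76. The other falls among the hormone enzymes were of HSD17B4 (-0.96), HSD17B8 (-0.87), HSD17B13 (-0.65), SRD5A1 (-0.47) and HSD17B6 (-0.45). Their limma adjusted p lay between 0.0103 and 0.0305. Among the transcription factors, ESR1, the estrogen receptor, rose 2.40-fold (log2 difference 1.26, or 0.63 with its probe sets averaged, which also passed), and the lipid-sensing receptors PPARG and PPARA fell 1.76-fold and 1.62-fold. VDR and AHR, receptors that respond to vitamin D and to dioxin, had differences of -0.09 and 0.04 and did not pass. Without vehicle replicate 2 the calls numbered 8 (5 rises, 3 falls), with PPARA and HSD3B1 among those lost; HSD3B1 was also lost without either treated array.

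The arrays were checked against the labelled cell type. In vehicle cells the epithelial genes KRT8, EPCAM and CDH1 read 13.01, 11.81 and 10.23, and VIL1, of the brush border, 4.31. Of 10 epithelial markers 1 rose and 5 fell, and their summed log2 level was 105.6 and 106.0 in vehicle and 102.8 and 103.8 in treated cells. Of 8 hepatocyte markers, a cell type rich in SULT2A1 and SULT1E1, 1 rose and 1 fell, with sums of 35.1 and 35.7 in vehicle and 35.3 and 35.3 in treated cells. Fibroblast markers included 3 rises among 8 (sums 34.5 and 34.6, then 39.1 and 39.3), endothelial markers 1 rise and 1 fall among 5 (22.2 and 22.8, then 25.3 and 24.3) and leukocyte markers 3 rises among 6 (24.4 and 25.3, then 29.0 and 28.3). Most of the rises in these last 3 sums came from a few genes. THY1 among the fibroblast markers rose 8.89-fold and PECAM1 among the endothelial ones 3.46-fold. CD3D, CD14 and CD3E among the leukocyte ones rose 3.47-fold, 2.27-fold and 1.89-fold. PTPRC, the pan-leukocyte gene, had a mean of 3.02 in vehicle and 3.12 in treated cells and did not pass. The part of these shifts in the fall of SULT1C2 was not tested.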

How the data were processed

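The deposited table holds log2 values of 33297 probe sets on 4 arrays, which the authors obtained by RMA in Affymetrix Expression Console, per the submitters' processing notes. RMA subtracts background, equalises the distributions of the arrays and summarises probes. The deposited probe set values still had medians of 5.73 and 5.72 in vehicle and 5.84 and 5.84 in treated cells. No software version or genome build is stated in the sources used here. The platform annotation gave 1 symbol to 19181 probe sets, several to 2055, and did not list 12061. Each of 17958 genes was represented by its probe set of highest mean. The comparison used lmFit and eBayes of limma 3.58.1 (R 4.3.3) on group alone, adjusted by Benjamini-Hochberg over all genes without a filter. An adjusted p under 0.05 is a call. With 2 arrays per group an exact permutation test cannot go below 0.333, so calls rest on the pooled variance, and the number of arrays limits the precision. The fit was tested on simulated data drawn from its own fitted variance model. Such data cannot show how well that model holds for these arrays. RefSeq tables of GRCh38.p14 gave gene order and promoter sequences.

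The members and gene lists were chosen with earlier results of these data known. The genes named were all members, the called genes of each list with the smallest p (4 per list, and all where 5 or fewer were called in 1 direction), called neighbours, and the 5 genes nearest to SULT1C2. Others (CRX, the remaining neighbours of the SULT1C cluster, PAPSS1, PAPSS2, HSD17B4, HSD17B6, HSD17B8, HSD17B13, SRD5A1, VDR, AHR and the markers) were chosen after their values were seen. Alternatives were another scaling, averaged probe sets, a filter on dim genes, another variance model, a replicate block, a stricter threshold and leaving out each array.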

Additional observations from a re-analysis of the deposited data

How the results depend on the processing

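The difference of SULT1C2, whose fall chose the family, ran from -3.11 to -2.39 over the fits tried, as a description. The count of called members was 1 in every setting except the replicate block (2) and was 1 to 3 with 1 array left out. With 1 array left out the counts ran from 10 to 25 for sulfation pathway genes, 5 to 12 for other conjugation genes, 8 to 17 for hormone metabolism and regulator genes and 3 to 7 for neighbour genes. Over all genes, leaving out the first vehicle array gave 1267 higher and 1196 lower calls and leaving out the second gave 1335 and 1237, against 2229 and 2794 with every array. In those fits 1 group has a lone array, assumed to vary like the other group. An adjusted p under 0.01 gave 10, 5, 7 and 3, and the replicate block 8 neighbour genes. The labels number the replicates without saying that a number marks a shared culture or day. Same-numbered arrays deviated together with a correlation of 0.27 across genes, which are not independent replicates. Signs turned for SULT1E1 (-0.0545 with housekeeping centring, -0.0722 to 0.12 with 1 array left out), SULT1B1 (-0.0127 to 0.27 with 1 array left out), SULT4A1 (-0.0341 to 0.28, likewise) and SLC5A7 (0.0905 after repeated quantile normalization). Of 42 other named genes in 412 comparisons 360 kept direction and side of the threshold and 51 lost the call. The dimmest 33.3% of genes include SULT1B1, SULT1C3, SULT1C4, SULT1E1 and SULT2A1, which gave no value under that filter. The table has no detection calls, so signal over background limits these 5 genes.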

Other observations

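SULT1A3 and SULT1A4, near-identical dopamine sulfotransferase genes, share 2 probe sets with SLX1A and SLX1B and were therefore not tested. The first read 9.61 and 9.68 in vehicle and 9.27 and 9.48 in treated cells, a difference of -0.27. The second read 9.41 and 9.46 in vehicle and 9.13 and 9.34 in treated cells, a difference of -0.20. In both, treated replicate 1 was the lower treated array, as it was for SULT1A1.

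SULT6B1, a cytosolic sulfotransferase gene outside the 10 described, read 2.75 and 2.73 in vehicle and 2.54 and 2.47 in treated cells, with a log2 difference of -0.23 (SE 0.11, limma adjusted p = 0.177).

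The window before CDO1 held 26 CpGs, more than before any of the 7 members in the table, which held between 0 and 11. Of all promoters 17.7% held more than CDO1. The windows before GCC2 and SLC5A7, which were not called, held 24 and 17 CpGs.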
